A study of Homo sapiens with 12 samples.

Results

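The results concern how far gene expression with ceritinib and crenolanib together departed from the sum of what each drug did alone. The cells were 143B, a human line established from an osteosarcoma and labelled wild-type, and were exposed for 48 h to both drugs at 1.0 µM each (the combination), to 1.0 µM ceritinib, to 1.0 µM crenolanib, or to DMSO, the solvent. Each group held 3 libraries, described as biological replicates, and all 12 libraries of the series enter the comparison. The departure, or interaction, is the combination minus ceritinib minus crenolanib plus DMSO, computed for each gene on log2(FPKM + 1), where FPKM is the number of fragments scaled to transcript length and to the size of the library. Of 56140 gene symbols listed, 11944 reached 1 FPKM in 3 or more libraries and were tested. A value of 0 means that the log2 changes of the drugs added up, a positive value that the combination stood above that expectation, and a negative value that it stood below. All 4 groups come from 1 cell line, and other osteosarcoma cells were not analysed here.

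Ceritinib is an inhibitor of the receptor tyrosine kinase ALK that also acts on the IGF1 and insulin receptors and on focal adhesion kinase. Crenolanib inhibits the PDGF receptors and FLT3, receptor tyrosine kinases that signal through PI3K, AKT and the ERK pathway. Such signalling feeds growth programmes including amino acid and lipid synthesis, translation and the cell cycle, so an effect of 1 drug on these programmes can depend on whether the other drug is present. The title of the series names combination treatment and signalling that single drugs switch on, and the interaction addresses whether the pair did something that the single drugs did not.

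Replicates of a group correlated at 0.995 to 0.996 across tested genes (Pearson's r), and no 2 libraries held identical values. The depth estimated for the combination was 19600000 to 22100000 fragments per library, against 23300000 to 28400000 for ceritinib, 22700000 to 24300000 for crenolanib and 24000000 to 26600000 for DMSO. These depths are rough estimates from the smallest values, searched within a preset range. Genes at 1 FPKM or more numbered 10284 to 10358 per combination library, 11423 to 11464 for ceritinib, 11220 to 11283 for crenolanib and 11375 to 11420 for DMSO. Mitochondrially encoded genes took 19.1% to 21.7% of all FPKM in the combination, 28.8% to 29.8% for ceritinib, 25.6% to 26.3% for crenolanib and 22.9% to 25.2% for DMSO. FPKM are shares of each library, so a change in total RNA per cell was not measured, and fewer cells of a kind cannot be told apart from less RNA per cell. A label's extraction text mentions a thymic sample, but 12 thymic and lymphoid markers summed to only 0.234 to 1.19 FPKM per library, while VIM, SPARC and CDH2 led the mesenchymal markers in all groups. Of the 15 osteosarcoma and mesenchymal markers, only 6 to 8 averaged at least 1 FPKM in a group. They summed to 547 to 560 FPKM in the combination, 505 to 513 for ceritinib, 533 to 541.5 for crenolanib and 555 to 580 for DMSO. The bone marker IBSP and the stromal marker THY1 were listed at 0 in every group, and SP7 in the combination and DMSO. The 10 epithelial markers summed to 556 to 569 FPKM in the combination, 343 to 353 for ceritinib, 342 to 362 for crenolanib and 371 to 401 for DMSO. Of these markers 3 reached the level for testing, 2 above additivity and 1 below, with the same counts once corrected. The keratins KRT18 and KRT8, the 2 above, departed by 0.83 and 0.80 and led that sum. CDH1 was at 0 with the combination and with each drug, and the part of these markers in the results was not tested. The 11 endothelial and myeloid markers, led by CD68, summed to 30.3 to 37.1 FPKM in the combination, 19.99 to 28.7 for ceritinib, 20.5 to 21.9 for crenolanib and 26.05 to 30.3 for DMSO.

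The pair departed from additivity in most expressed genes. Of 11944 genes, 9732 passed the threshold (81.5%; limma, Benjamini-Hochberg adjusted p under 0.05), with 4035 above additivity (33.8%) and 5697 below (47.7%). A departure of at least 1 on the log2 scale, a 2-fold difference, was reached by 618 genes above (5.17%) and 1659 below (13.9%). Against DMSO, the combination changed 10479 genes (87.7%), 4401 higher (36.8%) and 6078 lower (50.9%), of which 780 were at least 2-fold higher (6.53%) and 1716 at least 2-fold lower (14.4%). Ceritinib alone changed 4363 (36.5%), 2420 higher (20.3%) and 1943 lower (16.3%), with 51 (0.427%) and 14 (0.117%) at 2-fold. Crenolanib alone changed 3101 (26.0%), 1554 higher and 1547 lower, with 3 (0.0251%) and 9 (0.0754%) at 2-fold. The median size of the departure was 0.56 and of the combination change 0.58, against 0.17 for the summed single-drug changes, all on the log2 scale. In 7940 genes (66.5%) the single-drug changes summed to less than 0.25 in either direction, and 2526 of these were above additivity and 4091 below. The 3 combination libraries lay on 1 side of the additive expectation in 11063 of all genes tested, the 9732 called among them. That expectation comes from the same libraries of the other groups each time. Departures by library therefore share its error and show only the spread of the combination libraries. The split into above and below moves with the scaling of the libraries. It was 4035 above and 5697 below as deposited, 3728 and 5956 on the TPM scale, 4991 and 4864 with median-of-ratios size factors, 4945 and 4657 after quantile normalization, and 2905 and 6857 with equal sums of nuclear genes.

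Sorting the called genes by what the single drugs did gave 5 classes, described here without a test because the classes share libraries with the departure. The largest held genes that passed with neither drug alone and passed with the combination, 1829 above additivity and 3020 below. A further 1067 genes above and 1103 below went beyond the summed single-drug changes in the same direction. In 237 genes above and 228 below the combination went the way of the sum and fell short of it. In 822 above and 1259 below it turned to the opposite side of DMSO from the sum. Going beyond, falling short and turning were judged by sign alone, in genes that passed with at least 1 drug. Neither the sum nor the combination change had to pass a test of its own. The last 80 above and 87 below passed for the departure only.

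**Figure D1:**
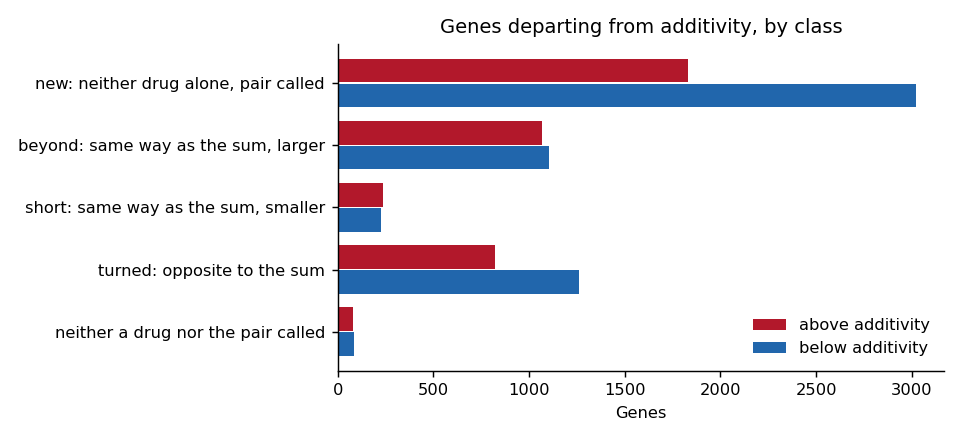
Number of genes past the threshold for a departure from additivity, in 5 classes by their single-drug and combination changes; the x axis counts genes, red bars are genes above additivity and blue bars genes below. The longest bar is the 3020 genes that passed with neither drug alone and were below additivity in the combination.

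The departure followed the composition and length of transcripts. By quintile of transcript GC percent, lowest to highest, the median departure was -0.82, -0.60, -0.20, 0.25 and 0.52. By quintile of transcript length, shortest to longest, it was 0.25, 0.17, -0.13, -0.32 and -0.70. In the quintile lowest in GC, 5.78% of genes were above additivity and 85.0% below, and in the highest quintile 73.4% were above and 6.63% below. Each combination library gave this gradient against the same additive expectation. The medians were -0.85, -0.81 and -0.79 in the lowest GC quintile and 0.58, 0.49 and 0.50 in the highest. Splines of GC and length accounted for 50.4% of the departure's variance across genes, GC alone for 42.5% and length alone for 19.3%. The same share was 46.9% for the combination's own change, 1.06% for ceritinib and 2.0% for crenolanib. The cause of the gradient was not tested. The combination also had the fewest genes at 1 FPKM and the lowest estimated depth, which is only a rough estimate.

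Coding stretches of 90 bases from 2 genes far below additivity and 1 far above it show the contrast in composition, with G and C in capitals. Each was chosen as the stretch within 1 exon whose GC percent is closest to that of the gene's longest coding transcript in GENCODE 29 (hg38), and is written 5′ to 3′ on the strand of the gene.
KIF20B, chr10:89710975-89711064, plus strand, exon 6 of 33: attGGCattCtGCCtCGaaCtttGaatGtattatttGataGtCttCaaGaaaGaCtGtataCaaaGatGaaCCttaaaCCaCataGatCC
CENPF, chr1:214613766-214613855, plus strand, exon 2 of 20: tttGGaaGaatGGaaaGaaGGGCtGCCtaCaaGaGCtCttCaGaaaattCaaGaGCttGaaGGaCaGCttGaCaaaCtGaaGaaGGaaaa
JUND, chr19:18281275-18281364, minus strand, exon 1 of 1: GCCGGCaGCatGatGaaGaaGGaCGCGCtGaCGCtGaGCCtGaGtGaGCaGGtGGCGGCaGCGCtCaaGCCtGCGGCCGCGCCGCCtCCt
The transcripts of KIF20B and CENPF, motor and kinetochore proteins of dividing cells, hold 34.2% and 40.8% GC over 6419 and 10307 bases. That of JUND, an AP-1 transcription factor, holds 69.7% over 1863 bases. The departure was -2.50 for KIF20B, -2.40 for CENPF and 2.09 for JUND. The 200 tested genes nearest to each in GC and length had median departures of -0.99, -0.99 and 0.78 in the same order. Each of the 3 genes lay farther from 0 than the median of genes of its own composition. They were picked for large departures, so this is a description of the choice and not a separate result.

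Values are given against matched genes too. The matched difference is a gene's departure minus the median of its 200 nearest genes, given as a description. GC and length are those of a gene's longest annotated transcript, which need not be the one that the cells express. The corrected departure is the same limma test after the part that follows GC and length was removed from each library, which also removes any drug effect that follows them. With the correction 8249 of 11764 genes passed (70.1%), 4138 above (35.2%) and 4111 below (34.9%), and at least 2-fold departures were fewer, 375 above (3.19%) and 320 below (2.72%). As deposited and corrected, 2580 genes were above both times (21.9%) and 3244 below both times (27.6%), while 254 were above as deposited and below once corrected (2.16%) and 892 the other way round (7.58%).

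**Figure D2:**
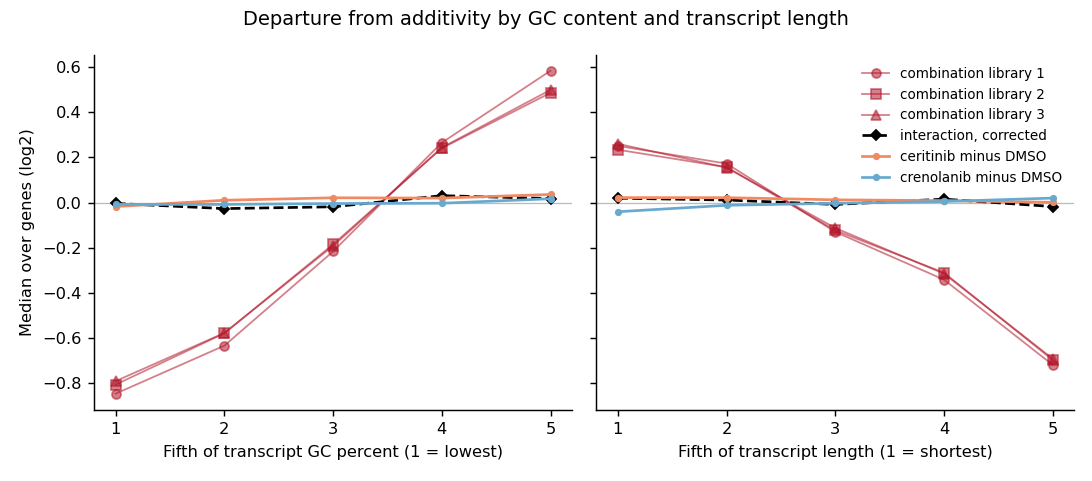
Median departure from additivity (log2) by quintile of transcript GC percent (left) and of transcript length (right), for each of the 3 combination libraries (red), with the corrected interaction (black, dashed) and the median changes with ceritinib (orange) and crenolanib (blue). The red lines climb to between 0.49 and 0.58 in the highest GC quintile and reach -0.72 to -0.69 in the longest quintile, while the other lines stay near 0.

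Amino acid stress genes, the targets of the transcription factors ATF4 and CHOP that supply amino acids and load tRNAs, were mostly lower with each single drug, and the combination stayed above the sum of the drugs in most of them. Of this list 24 of 33 members tested, of 34 listed, were above additivity and 5 below, with a median departure of 0.78 against -0.15 over all genes tested. For this and every list that follows, the shares over all genes tested were 33.8% above and 47.7% below. Once corrected they were 35.2% and 34.9%. The list medians in the 3 combination libraries, against the same additive expectation, were 0.81, 0.74 and 0.80. Over 4 other scalings the median ran from 0.54 to 0.99. The median change was -0.33 with the combination against a median sum of -1.11, with -0.59 for ceritinib and -0.51 for crenolanib. By sign alone, 15 members fell short of the sum, 8 turned to the other side of DMSO and 5 went beyond it. Of those that turned, SESN2 changed by only 0.03 with the combination against DMSO (limma, adjusted p = 0.687). The median matched difference was 0.83, against 0.00 over all genes, and after correction 25 above and 4 below were called.

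DDIT4 had 119, 112 and 119 FPKM in the combination, 27.1, 25.1 and 23.9 with ceritinib, 13.1, 14.1 and 14.3 with crenolanib and 22.3, 22.3 and 22.2 in DMSO. DDIT4 (chr10:72273920-72276036) encodes REDD1, an inhibitor of mTORC1 that stress switches on, and its 3 combination libraries lay far above the other 9. The additive expectation was 15.7 FPKM, and the departure of 2.81 ± 0.0644 (SE, adjusted p = 1.63e-11) came with a matched difference of 2.21. ASNS had 11, 11.6 and 11 FPKM in the combination, 10.2, 9.44 and 9.18 with ceritinib, 11.5, 11 and 10.6 with crenolanib and 38.3, 38.5 and 36.5 in DMSO. ASNS (chr7:97852118-97872542), asparagine synthetase, was low in all 3 drug groups, with combination and crenolanib libraries overlapping and every DMSO library higher. Its additive expectation was only 2.29 FPKM and its departure 1.89 ± 0.0603 (SE, adjusted p = 6.31e-11).

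The enzymes of serine synthesis departed by unlike amounts. PHGDH had 315, 301 and 313 FPKM in the combination, 207, 198 and 196 with ceritinib, 199.7, 207 and 203 with crenolanib and 344, 342 and 334 in DMSO, for a departure of 1.36 ± 0.0405 (SE, adjusted p = 4.45e-11). PHGDH, the first enzyme of serine synthesis, was lowest with the single drugs, and its combination libraries lay between these and DMSO without overlap. SHMT2, which moves a carbon from serine into the mitochondrial folate pool, had 85.0 ± 2.15 FPKM in the combination against an additive expectation of 28.6 and 59.7 ± 2.20 in DMSO (SD, n = 3, as for each mean that follows), above every other library, for a departure of 1.54. PSAT1, the next enzyme after PHGDH, was lowest in the combination, at 63.1 ± 3.20 FPKM in the combination against an additive expectation of 44.4 and 219 ± 4.16 in DMSO, and its departure was 0.50. PCK2, the mitochondrial phosphoenolpyruvate carboxykinase, departed by 2.10 and SESN2, a leucine-sensing inhibitor of mTORC1, by 1.35. CHAC1, a glutathione-degrading enzyme, departed by 1.77 from an expectation of 0.0301 FPKM, close to the bottom of the scale.

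The transcription factors of the response did not move alike. ATF4 mRNA had 228 ± 4.34 FPKM in the combination against an additive expectation of 116 and 199 ± 0.896 in DMSO, a departure of 0.98 ± 0.0347 (SE, adjusted p = 1.32e-10). CEBPB, a bZIP factor that pairs with ATF4, had 16.3 ± 1.79 FPKM in the combination against an additive expectation of 3.78, a departure of 1.85 ± 0.155 (SE, adjusted p = 2.18e-07), and it passed with neither drug alone. DDIT3, which encodes CHOP, had 1.90 ± 0.204 FPKM in the combination against an additive expectation of 1.85 and its departure of 0.02 ± 0.158 (SE, adjusted p = 0.904) did not pass, nor did its -0.19 once corrected. TRIB3, a pseudokinase target of CHOP, departed by 1.30. Among the 5 members below additivity, the tRNA exporter XPOT departed by -1.31 and the amino acid transporter SLC38A2 by -1.22, with matched differences of -0.38 and -0.32.

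The C/EBP-ATF response element is the short sequence that ATF4 and C/EBP factors bind. Its letters TGATGNAA, searched on both strands from 250 bases before to 50 after the RefSeq start (GRCh38.p14), were in 6 of 25 promoters of the list (24%) and in 134 of 8993 promoters of tested genes (1.49%). The following 60-base windows show it in capitals, on either strand, in 4 promoters whose genes were above additivity.
ASNS, chr7:97872443-97872502, minus strand: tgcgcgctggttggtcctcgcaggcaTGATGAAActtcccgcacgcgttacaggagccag
CHAC1, chr15:40953236-40953295, plus strand: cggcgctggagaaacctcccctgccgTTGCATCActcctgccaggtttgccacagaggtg
ATF3, chr1:212565190-212565249, plus strand: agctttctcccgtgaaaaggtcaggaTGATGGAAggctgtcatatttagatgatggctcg
AARS, chr16:70289660-70289719, minus strand: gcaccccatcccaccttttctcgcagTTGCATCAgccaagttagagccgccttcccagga
Counted from the gene's start, the capitals begin at -68 in ASNS, -209 in CHAC1, -191 in ATF3 and -187 in AARS, and they lie on the other strand in CHAC1 and AARS. These genes departed by 1.89, 1.77, 0.75 and 0.78 in that order, and SLC3A2, whose promoter also holds the letters, by 1.15. The element was also in the SLC7A1 promoter, and that gene was below additivity with a departure of -0.16. A match is a description and not a measured binding site. The list was made of targets of ATF4 and CHOP, so its higher share was foreseeable and is not a result about the departure.

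**Figure D3:**
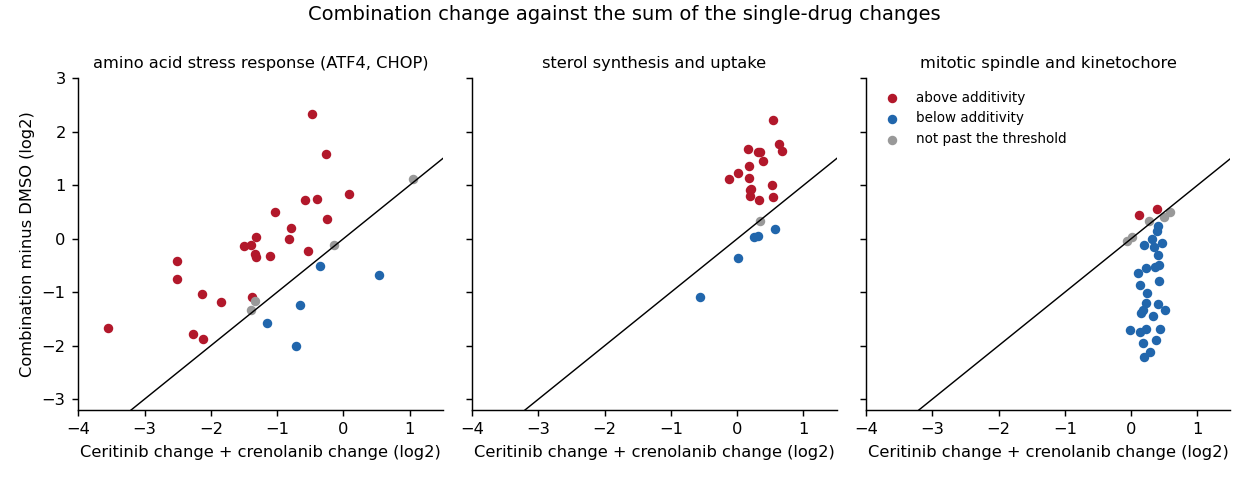
Combination change against DMSO (y axis, log2) plotted over the sum of the ceritinib and crenolanib changes (x axis, log2) for tested members of 3 gene lists; the diagonal marks additivity, red points are above it, blue points below and grey points not past the threshold. Amino acid stress genes lie mostly left of 0 and above the line, 17 of 23 sterol genes sit above it, and 28 of 35 mitotic genes below it at a median sum of 0.28.

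Sterol genes, among them the mevalonate enzymes that the factor SREBP2 controls, stood mostly above the sum of the single-drug changes. Of the list 17 of 23 members tested, of 24 listed, were above additivity and 5 below, with a median departure of 0.74 (0.76, 0.74 and 0.74 in the 3 libraries; 0.47 to 0.94 over the other scalings) and a median combination change of 1.0, against a median sum of 0.31. After correction 23 above and 0 below were called, with a median matched difference of 0.81. MVD had 29.6, 24.5 and 26.8 FPKM in the combination, 6.66, 5.89 and 5.63 with ceritinib, 6.43, 6.80 and 6.03 with crenolanib and 4.58, 5.09 and 5.31 in DMSO. MVD, mevalonate diphosphate decarboxylase, was highest in the 3 combination libraries without overlap, and its departure was 1.68 ± 0.105 (SE, adjusted p = 1.43e-08). FDPS, the farnesyl diphosphate synthase, had 47.5 ± 0.329 FPKM in the combination against an additive expectation of 18.5. HMGCS1, an enzyme of the pathway's entry with a transcript of 40.2% GC, was below additivity as deposited (-0.39) and above it once corrected (0.28). INSIG1, an SREBP feedback protein, departed by 0.60. The sterol response element TCACNCCAC, the letters that SREBP factors bind, was in 1 of 18 promoters of the list (5.56%), that of SREBF2, and in 90 of 8993 promoters of tested genes (1.0%). SREBF2 encodes SREBP2 and departed by 0.74, and the 60 bases around the letters, in capitals from -133, are shown because they come from the factor's own promoter.
SREBF2, chr22:41832946-41833005, plus strand: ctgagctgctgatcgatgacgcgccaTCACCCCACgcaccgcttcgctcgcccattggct

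Of the fatty acid synthesis list 7 of 13 members tested, of 13 listed, were above additivity and 5 below, and after correction 9 above and 0 below were called. Shares over all genes tested were 33.8% and 47.7% as deposited and 35.2% and 34.9% corrected. ACSS2 had 32.1, 31.7 and 28.7 FPKM in the combination, 6.55, 5.98 and 5.87 with ceritinib, 8.94, 8.76 and 8.56 with crenolanib and 8.74, 9.08 and 9.21 in DMSO. ACSS2 makes acetyl-CoA from acetate, and its departure of 2.20 ± 0.0671 (SE, adjusted p = 5e-11) came with combination libraries above all others and ceritinib libraries below DMSO. FADS2, a fatty acid desaturase, had 42.2 ± 1.71 FPKM in the combination against an additive expectation of 15.8, a departure of 1.36.

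Glycolytic and hypoxia-response genes also stood above additivity. Of the list 23 of 28 members tested, of 31 listed, were above additivity and 1 below, with a median departure of 0.72 (0.72, 0.71 and 0.73 in the 3 libraries; 0.46 to 0.91 over the other scalings) and a median matched difference of 0.72. PGK1 had 319, 317 and 333 FPKM in the combination, 127, 127 and 125 with ceritinib, 155, 154 and 152 with crenolanib and 133, 133 and 131 in DMSO. PGK1, phosphoglycerate kinase, departed by 1.14, and its matched difference was larger, at 1.83. That difference rests on its longest annotated transcript, of 4887 bases at 43.3% GC, which need not be the one expressed. SLC2A1, the glucose transporter GLUT1, had 58.7 ± 3.07 FPKM in the combination against an additive expectation of 23.1. PFKFB4, which sets the level of a phosphofructokinase activator, departed by 1.70, BNIP3, a mitophagy receptor, by 1.44, NDRG1, a hypoxia-induced growth regulator, by 1.63 and VEGFA, the angiogenic growth factor, by 0.72. ANGPTL4, a secreted inhibitor of lipoprotein lipase, had 16.1 ± 1.42 FPKM in the combination against an additive expectation of 2.66 and 2.80 ± 0.301 in DMSO, a departure of 2.22 ± 0.138 (SE, adjusted p = 1.33e-08), and it passed with neither drug alone.

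Among genes of ER to Golgi transport, 17 of 31 members tested, of 32 listed, were above additivity and 12 below, and after correction 23 above and 7 below were called. All genes tested had 33.8% above and 47.7% below, and 35.2% and 34.9% after correction. The list median was 0.23 as deposited and -0.03 at the lowest of the other scalings, and the median matched difference was 0.48. CREB3 had 86.5, 83.1 and 86.5 FPKM in the combination, 14.1, 14.4 and 12.6 with ceritinib, 16.5, 16.1 and 13.7 with crenolanib and 12.4, 10.8 and 12.1 in DMSO. CREB3, a membrane-bound transcription factor cut loose at the Golgi, had all 3 combination libraries above all others, and its departure was 2.19 ± 0.0985 (SE, adjusted p = 8.28e-10). KDELR3 had 36.9, 40.9 and 38.6 FPKM in the combination, 7.73, 7.35 and 8.10 with ceritinib, 8.51, 8.15 and 8.23 with crenolanib and 6.69, 6.09 and 6.66 in DMSO. KDELR3, a receptor that returns ER proteins from the Golgi, departed by 1.87 ± 0.0656 (SE, adjusted p = 1.18e-10) with a matched difference of 2.02. ARF4, a small GTPase of the Golgi, had 159 ± 3.54 FPKM in the combination against an additive expectation of 63.0, and YIF1A, an ER to Golgi trafficking protein, had 95.1 ± 3.80 FPKM in the combination against an additive expectation of 17.5 and 14.2 ± 0.456 in DMSO. RCN3, a calcium-binding ER protein, departed by 2.28. The cargo receptor LMAN1 and the COPII coat subunit SEC24B departed by -1.28 and -1.31, with matched differences of -0.37 and -0.59.

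**Figure D4:**
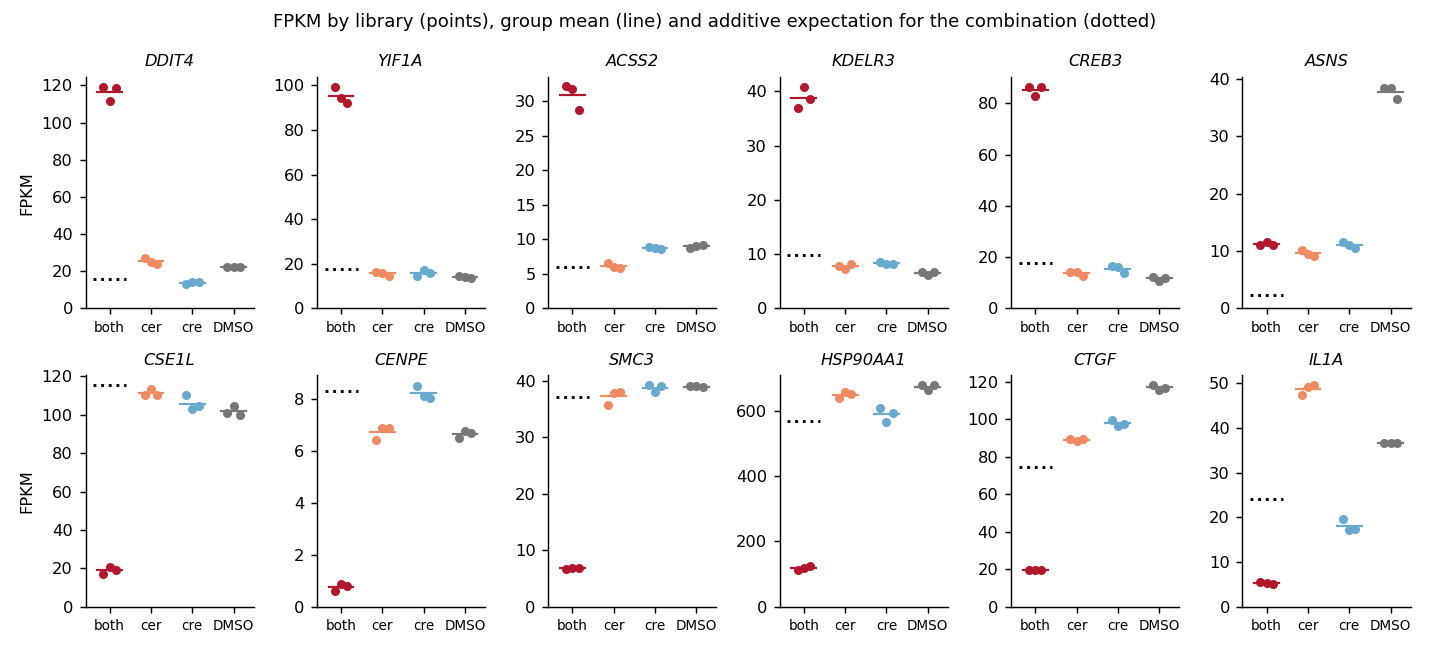
FPKM in each library (points) and group means (lines) for 12 genes, in the combination (both), ceritinib (cer), crenolanib (cre) and DMSO; the dotted line marks the additive expectation for the combination, and each y axis starts at 0. In 11 of the genes the 3 combination points lie apart from every other library, and in ASNS they sit among the single-drug points.

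Ribosomal protein genes stood mostly above additivity and ribosome-building genes mostly below. Of the cytosolic ribosomal protein genes 34 of 38 members tested, of 38 listed, were above additivity and 2 below, with a median departure of 0.89 (0.37 to 1.10 over the other scalings) and a median matched difference of 0.81. These genes have near-identical pseudogene copies, so single values are uncertain. RPS2 had 1854, 1852 and 1965 FPKM in the combination, 690.1, 678 and 709 with ceritinib, 705, 762 and 745 with crenolanib and 872, 837 and 778 in DMSO, a departure of 1.62 ± 0.0610 (SE, adjusted p = 2.03e-10). RPL11, a ribosomal protein that also binds MDM2, was below additivity, with 114 ± 3.81 FPKM in the combination against an additive expectation of 221 and 247 ± 4.75 in DMSO. Of the genes that build ribosomes in the nucleolus 6 of 27 members tested, of 27 listed, were above additivity and 19 below, and the median was -0.37 (-0.62 to -0.17 over the other scalings). UTP20, a small-subunit processome component, had 2.09 ± 0.0790 FPKM in the combination against an additive expectation of 12.8, and NOP58, a box C/D snoRNP core protein, had 10.7 ± 0.701 FPKM in the combination against an additive expectation of 45.1. ESF1, another nucleolar rRNA processing protein, departed by -2.26. The E-box CACGTG was in 10 of 22 promoters of the ribosome-building list (45.5%), searched as before, and in 949 of 8993 promoters of tested genes (10.6%).

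Mitochondrially encoded mRNAs, subunits of the respiratory chain, had a median change of -0.26 with the combination, 0.30 with ceritinib and 0.10 with crenolanib. Of 13 such mRNAs 1 was above additivity and 12 below, with a median of -0.72 (-0.99 to -0.19 over the other scalings). MT-ND2 had 2928, 3320.0 and 2822 FPKM in the combination, 4924, 5277 and 5255 with ceritinib, 4251, 4379 and 4176 with crenolanib and 3357, 3192 and 3356 in DMSO. MT-ND2, a complex I subunit, was highest in the ceritinib libraries, its combination and DMSO libraries overlapped, and its departure was -1.14 ± 0.0745 (SE, adjusted p = 2.13e-08). MT-ND3 was the member above additivity, at 0.30. Of nuclear genes for the respiratory chain 25 of 36 members tested, of 36 listed, were above additivity and 8 below, with a median of 0.47 (0.20 to 0.68 over the other scalings). UQCRB, a complex III subunit, had 17.4 ± 0.987 FPKM in the combination against an additive expectation of 7.59, a departure of 1.09. Its matched difference of 2.11 rests on its longest annotated transcript, of 5575 bases at 38.3% GC, which need not be the one expressed.

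Mitotic genes were mostly below additivity. Of the spindle and kinetochore list 2 of 35 members tested, of 35 listed, were above additivity and 28 below, with a median departure of -0.92 (-0.92, -0.90 and -0.93 in the 3 libraries; -1.17 to -0.72 over the other scalings) and a median matched difference of -0.72. The median change was -0.64 with the combination, 0.14 with ceritinib and 0.16 with crenolanib. By sign alone, 23 members took the opposite side of DMSO from the summed single-drug change. CENPE had 0.609, 0.880 and 0.793 FPKM in the combination, 6.43, 6.91 and 6.89 with ceritinib, 8.53, 8.13 and 8.06 with crenolanib and 6.53, 6.80 and 6.70 in DMSO. CENPE, a kinetochore motor, fell to under 1 FPKM in each combination library, and its departure was -2.41 ± 0.0755 (SE, adjusted p = 5.7e-11). KIF20B had 1.16, 1.45 and 1.27 FPKM in the combination, 9.68, 9.81 and 10.2 with ceritinib, 11, 10.01 and 11.2 with crenolanib and 8.90, 8.84 and 8.77 in DMSO, a departure of -2.50 ± 0.0712 (SE, adjusted p = 3.45e-11). CENPF had 3.0 ± 0.0835 FPKM in the combination against an additive expectation of 20.1, ASPM, a spindle pole protein, 1.28 ± 0.0888 FPKM in the combination against an additive expectation of 9.90, and TOP2A, the mitotic topoisomerase, 16 ± 1.11 FPKM in the combination against an additive expectation of 73.1. The matched difference of TOP2A was -1.12, against a departure of -2.13. AURKA, the spindle pole kinase Aurora A, had 30.8 ± 2.70 FPKM in the combination against an additive expectation of 97.0 and a matched difference of -1.48. CCNB1, cyclin B1, departed by -0.55, PLK1, a mitotic kinase, by -0.24, and the checkpoint protein MAD2L1 lay above additivity by 0.32.

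Cohesin, condensin and related SMC genes, which hold and fold chromosomes, had the lowest median of the lists described, -1.30 (-1.63 to -1.07 over the other scalings), with 20 of 21 members below additivity and 1 above. These transcripts are long and low in GC, and the median matched difference was -0.51, with 1 above and 20 below after correction. SMC3 had 6.61, 6.94 and 6.91 FPKM in the combination, 35.8, 37.9 and 38.1 with ceritinib, 39.3, 38 and 39.1 with crenolanib and 39.0, 39.0 and 38.9 in DMSO, a departure of -2.28 ± 0.0425 (SE, adjusted p = 1.03e-11). SMC3, a ring subunit of cohesin, did not pass the threshold with either drug alone, and the 3 combination libraries lay below all others. The exception was NCAPH2, a condensin II subunit with 62.2% GC, at 0.96. Of the replication genes 9 of 37 members tested, of 37 listed, were above additivity and 21 below. Over all genes tested 33.8% were above and 47.7% below. The list median of -0.17 was near the -0.15 over all genes, and was 0.03 at the highest of the other scalings. MCM10 departed by -1.80 and MCM2 by 0.72, both of the replication origin machinery, with matched differences of -1.12 and 0.44. CDK6, a G1 kinase, had 1.66 ± 0.141 FPKM in the combination against an additive expectation of 9.53. Its departure was -1.98 and its matched difference -0.99. CDKN1A encodes the CDK inhibitor p21. It had 45.9 ± 2.37 FPKM in the combination against an additive expectation of 15.1 and 19.1 ± 0.505 in DMSO. The departure of CDKN1A was 1.54 ± 0.0717 (SE, adjusted p = 1.1e-09), with a matched difference of 0.98.

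Nuclear transport genes were mostly below additivity. Of the import and export list 2 of 28 members tested, of 28 listed, were above additivity and 26 below, with a median of -1.09 (-1.32 to -0.90 over the other scalings) and a median matched difference of -0.37. CSE1L had 17.3, 20.5 and 19.4 FPKM in the combination, 110.2, 113 and 110.3 with ceritinib, 110.2, 103 and 104 with crenolanib and 101, 105 and 99.9 in DMSO. CSE1L, the exporter that recycles importin alpha (chr20:49046246-49096960), departed by -2.54 ± 0.0695 (SE, adjusted p = 2.9e-11), with a matched difference of -1.76. XPO1, the main protein exporter CRM1, had 9.49 ± 0.550 FPKM in the combination against an additive expectation of 32.5. Its departure was -1.68 and its matched difference -0.66. For 2 other lists of long, low-GC transcripts most of the departure was shared with matched genes. The splicing factor list had a median of -0.62 as deposited and -0.08 against matched genes, and the KRAB zinc finger list -0.78 and -0.09. Their counts above and below were 7 and 21 of 30 splicing factors as deposited and 11 and 16 once corrected, and 1 and 17 of 19 zinc finger genes as deposited and 7 and 7 once corrected. SF3B1, the branch site binder of the spliceosome, departed by -1.74 with a matched difference of -0.83, and ZNF121, a zinc finger protein, by -2.0 with -1.01.

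**Figure D5:**
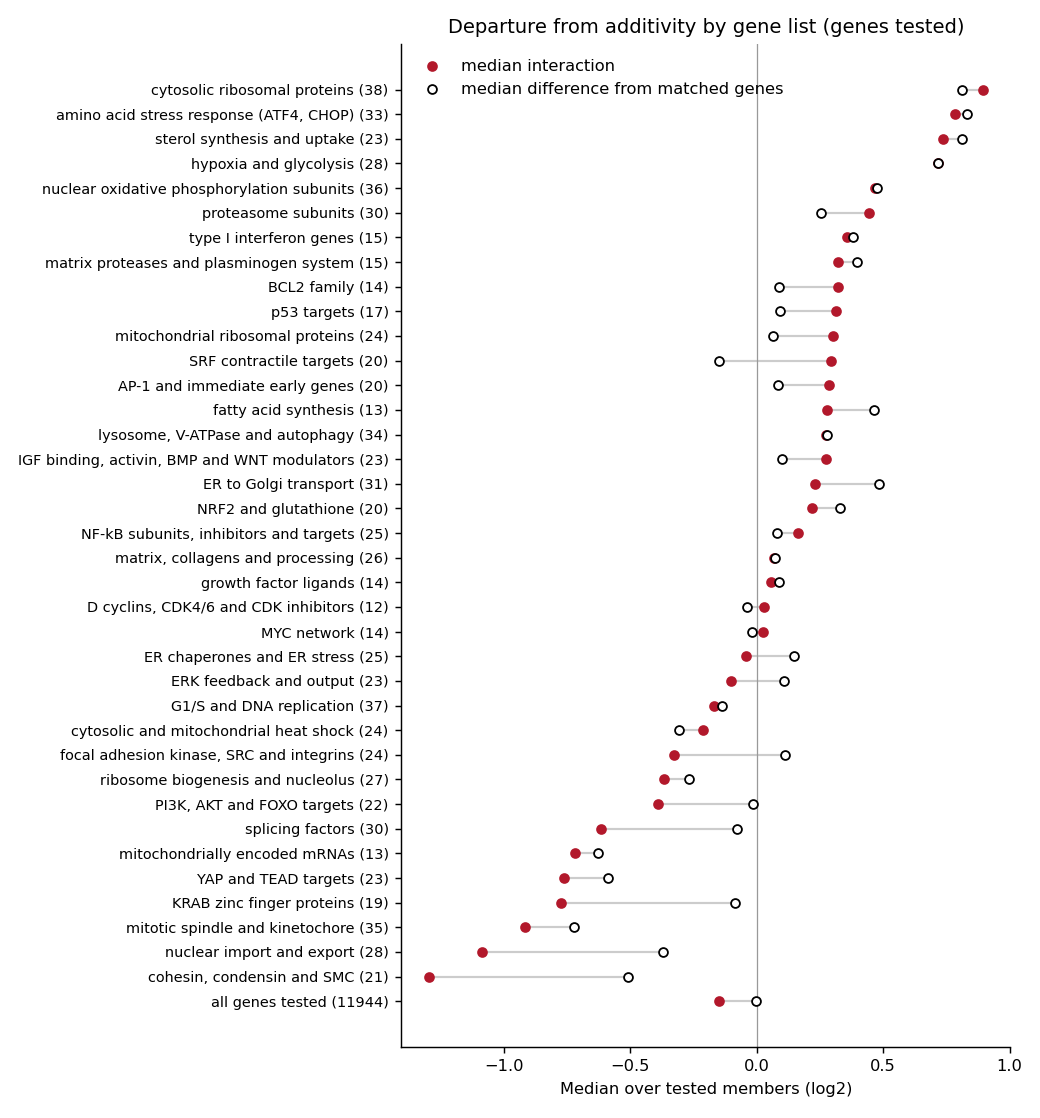
Median departure from additivity (red) and median difference from 200 genes matched on GC and length (open circles), on the log2 scale, for the lists with at least 10 tested members, whose number is in brackets, and for all genes tested at the bottom. Splicing factors and KRAB zinc finger genes move to near 0 against matched genes, while amino acid stress, sterol, ribosomal protein and hypoxia lists stay between 0.72 and 0.83.

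YAP and TEAD, the transcription factors of the Hippo pathway that drive adhesion and growth genes, and their targets were mostly below additivity. Of the list 4 of 23 members tested, of 24 listed, were above additivity and 18 below, with a median of -0.76 (-1.0 to -0.57 over the other scalings) and a median matched difference of -0.59, and 2 above and 19 below after correction. CTGF had 19.8, 19.8 and 19.8 FPKM in the combination, 89.5, 88.3 and 89.6 with ceritinib, 99.8, 96.5 and 97.7 with crenolanib and 118, 116 and 117 in DMSO. CTGF, a matricellular YAP target (chr6:131948176-131951373), had combination libraries close together and far below the other 9, and its departure of -1.86 ± 0.0306 (SE, adjusted p = 4.85e-12) came from a gene of 51.5% GC whose matched difference was -2.0. ANKRD1, a muscle ankyrin-repeat YAP target, had 2.62 ± 0.292 FPKM in the combination against an additive expectation of 15.6, although crenolanib alone raised it. CYR61, a close relative of CTGF, departed by -0.51. The factors themselves departed by -2.22 for TEAD1 and -1.05 for YAP1, with matched differences of -1.23 and -0.35.

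Heat shock genes were below additivity more often than above, as were all genes tested (47.7% below and 33.8% above). Of the list 4 of 24 members tested, of 25 listed, were above additivity and 14 below. The median was -0.21 (-0.50 to -0.06 over the other scalings), near the -0.15 over all genes tested. The median matched difference was -0.31, and after correction 4 above and 16 below were called. HSP90AA1 had 113, 118 and 123 FPKM in the combination, 639, 658 and 650.3 with ceritinib, 609, 564 and 591 with crenolanib and 677, 662 and 679 in DMSO. HSP90AA1, the stress-inducible HSP90 chaperone, departed by -2.25 ± 0.0487 (SE, adjusted p = 1.32e-11), with a matched difference of -1.76. The 3 combination libraries lay far below the other 9. The constitutive paralog HSP90AB1 had 655 ± 18.8 FPKM in the combination against an additive expectation of 724, a departure of -0.14 that was 0.069 with median-of-ratios factors and missed the threshold once corrected (-0.03). Both genes have processed pseudogenes elsewhere in the genome, and their values are uncertain to that extent.

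Inflammatory genes lay on both sides of additivity. Of the NF-kB list 13 of 25 members tested, of 32 listed, were above additivity and 7 below, with a median of 0.16 that ran from -0.08 to 0.39 over the other scalings. The shares of all genes tested were 33.8% above and 47.7% below. CXCL8 had 63.4, 66.0 and 66.4 FPKM in the combination, 96.1, 103 and 97.8 with ceritinib, 12.4, 11.2 and 10.9 with crenolanib and 13.3, 14.9 and 15 in DMSO. CXCL8, the neutrophil chemokine interleukin-8, rose with the combination and with ceritinib and its departure of -0.29 did not hold once corrected (0.10). CXCL1, a related chemokine, departed by -0.78. IL1A had 5.66, 5.42 and 5.20 FPKM in the combination, 47.4, 49.1 and 49.6 with ceritinib, 19.6, 17.1 and 17.4 with crenolanib and 36.6, 36.7 and 36.6 in DMSO. IL1A, the cytokine interleukin-1 alpha, fell with the combination and with crenolanib and rose with ceritinib, without overlap, a departure of -1.96 ± 0.0631 (SE, adjusted p = 6.65e-11). PTGS2, the prostaglandin synthase COX-2, had 8.73 ± 0.602 FPKM in the combination against an additive expectation of 4.60, and NFKB2, the p100 subunit, and TNIP1, an A20-binding inhibitor, departed by 1.45 and 1.5. The NF-kB motif GGGNNTTCC was in 6 of 21 promoters of the list (28.6%) and in 737 of 8993 promoters of tested genes (8.20%). This list includes NF-kB targets, so its higher share is not a result about the departure.

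Of the type I interferon genes 8 of 15 members tested, of 27 listed, were above additivity and 4 below, and once corrected 8 were above and 1 below. Beside this list and the next, all genes tested had 33.8% above and 47.7% below, and 35.2% and 34.9% once corrected. ISG15 had 65.0, 54.7 and 53.2 FPKM in the combination, 10.9, 7.55 and 7.72 with ceritinib, 9.25, 11.8 and 10.5 with crenolanib and 6.39, 6.34 and 5.74 in DMSO. ISG15, a ubiquitin-like antiviral protein, stood highest in the combination without overlap, a departure of 1.93 ± 0.171 (SE, adjusted p = 3.84e-07), and OASL, an antiviral sensor cofactor, had 5.5 ± 0.410 FPKM in the combination against an additive expectation of 1.26. Among AP-1 and early response genes 11 of 20 members tested, of 24 listed, were above additivity and 4 below, but once corrected 9 were above and 7 below, with a median matched difference of 0.09. JUND had 19.5 ± 0.906 FPKM in the combination against an additive expectation of 3.81 and JUNB 36.9 ± 2.03 FPKM in the combination against an additive expectation of 9.90, both from GC-rich single-exon genes with matched differences of 1.31 and 1.0. MXD4, a repressor that competes with MYC for MAX, had 10.5 ± 0.483 FPKM in the combination against an additive expectation of 2.31, and SQSTM1, the autophagy receptor p62, had 97.4 ± 1.24 FPKM in the combination against an additive expectation of 30.3. ASS1, the arginine-making argininosuccinate synthase, departed by 2.55, but has many processed pseudogenes that can share its reads.

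Genes that both drugs changed in 1 direction were set against the sum. Of 43 protein-coding genes that each drug lowered by at least 0.5, 34 were above additivity and 2 below, and the median was -1.01 for the combination and -1.39 for the sum. Of 18 protein-coding genes that each drug raised by at least 0.5, 7 were above and 7 below, with medians of 1.46 for the combination and 1.43 for the sum. Over genes of every biotype it was 36 above and 2 below of 45 lowered, and 7 above and 19 below of 30 raised. The raised genes outside the protein-coding set were 10 mitochondrial tRNAs, MIR647 and DFFBP1, all 12 below additivity as deposited. The tRNAs, which read the codons of mitochondrial mRNAs and are very short, departed by -2.77 to -0.65, and after correction 6 were below and 2 above. These genes were picked on libraries that also enter the departure, so the counts are a description. IGFBP5 had 14, 14.1 and 14.1 FPKM in the combination, 3.26, 3.27 and 2.83 with ceritinib, 3.76, 3.57 and 4.17 with crenolanib and 0.633, 0.548 and 0.610 in DMSO. IGFBP5, an IGF-binding protein, was raised by each drug and most by both, and its departure from an additive expectation of 11.5 FPKM was 0.27 as deposited and -0.25 on the TPM scale. IGFBP7, a secreted relative, had 159.7 ± 2.31 FPKM in the combination against an additive expectation of 62.6, a departure of 1.34 ± 0.0567 (SE, adjusted p = 5.26e-10). CXCR4, the receptor of the chemokine CXCL12, had 21.9 ± 1.04 FPKM in the combination against an additive expectation of 14.7 and departed by 0.54, and CEMIP, a hyaluronan-degrading protein raised mainly by ceritinib, had 48.4 ± 1.2 FPKM in the combination against an additive expectation of 29.6 and departed by 0.69.

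For FST and DKK1, secreted antagonists of growth factors, the single-drug rises did not add. FST had 3.71, 3.21 and 3.75 FPKM in the combination, 6.06, 6.38 and 6.66 with ceritinib, 9.57, 9.48 and 8.84 with crenolanib and 4.04, 3.54 and 2.90 in DMSO. FST, follistatin, which binds activin, was raised by each drug alone and its combination and DMSO libraries overlapped, a departure of -1.90 ± 0.114 (SE, adjusted p = 1.01e-08). DKK1, a WNT antagonist, had 36.0 ± 1.42 FPKM in the combination against an additive expectation of 73.3 and 58.0 ± 0.586 with crenolanib alone, a departure of -1.01.

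Among kinases that the drugs inhibit, several were not expressed at a level that could be tested. ALK, ROS1, PDGFRB, KIT, FLT3 and CSF1R stayed under 1 FPKM in every library and were not tested, with ALK at 0.0446 FPKM at most. Of the 7 tested, 2 were above additivity and 4 below with a median of -0.41, while once corrected 4 were above and 1 below, with a median matched difference of 0.32. The split as deposited was near that of all genes tested, 33.8% above and 47.7% below. Once corrected, all genes had 35.2% above and 34.9% below. PTK2, focal adhesion kinase, had 5.79 ± 0.125 FPKM in the combination against an additive expectation of 12.5 and departed by -1.0, with a matched difference of -0.40. PDGFRA had 2.72, 2.73 and 2.55 FPKM in the combination, 3.47, 4.12 and 4.07 with ceritinib, 7.35, 6.60 and 6.76 with crenolanib and 6.95, 6.82 and 6.87 in DMSO. PDGFRA, the alpha PDGF receptor, fell with the combination and with ceritinib, the combination libraries lay below all others, and its departure was -0.42 as deposited and 0.40 once corrected. IGF1R, the IGF1 receptor, departed by -0.41 as deposited and by -0.01 once corrected, and INSR, the insulin receptor, did not pass as deposited (-0.09) and was above additivity once corrected (0.43). Of kinases further down, the ribosomal S6 kinases RPS6KA1 and RPS6KA3 departed by 0.72 and -1.05, and CAMKK2, which activates AMPK, by 0.36. RPS6KA3 had a matched difference of -0.06 and did not pass once corrected (-0.04).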

How the data were processed

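RNA sequencing of 143B cells gave 12 libraries, 3 per group. The submitters' processing notes name FastQC 0.11.2, STAR, StringTie and hg38, and versions of STAR and StringTie and the annotation used are not given in the sources here. The authors deposited 1 FPKM value per gene symbol and library, a unit read from the values. Whole counts could not be recovered, and depth is a rough estimate from the smallest values. Only 25.9% to 29.3% of the small values used, per library, lay within 0.1 of a whole number of fragments at the estimated depth. Evenly spread values would also place a share there, and the search was limited to a preset range. The depths are therefore weakly founded. Symbols were matched to GENCODE 29 (54610 by symbol, 23 by older symbol), which gave coordinates, GC percent and longest transcript; 1 unnamed entry was left out.

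Genes reaching 1 FPKM in 3 or more libraries were fitted on log2(FPKM + 1) with 1 mean per group in limma 3.58.1 (R 4.3.3, trend on, robust off, 8 residual degrees of freedom), two-sided, Benjamini-Hochberg adjusted over 11944 genes, threshold 0.05. The pseudocount of 1 makes changes of genes near 1 FPKM smaller than their ratios. The corrected fit removed, per library, natural splines of GC percent and of log2 length (5 degrees of freedom per spline) in 11764 genes (98.5%). Simulated data for this comparison held 11944 genes, with 50 made to depart at each size and all others additive. Of genes departing by -0.5 and 0.5, 78% and 74% were recovered, 92% at -1 and 1, and 7.18% of calls were false. In the data 81.5% of genes passed, so these shares need not hold there.

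Genes were named from the 8 largest departures and 8 largest matched differences in each direction (protein-coding, past the threshold, at least 5 FPKM in 1 group), up to 4 members per list by adjusted p, the kinases inhibited, and genes both drugs changed, leaving out readthrough, overlapping and near-identical loci; further list members were chosen after their values were seen. The lists and genes were chosen with earlier results of these data known. Residuals of libraries with the same replicate number had a median correlation of -0.001 over 18 pairs, so numbers were not used as a block. Promoters are RefSeq sequences (GRCh38.p14), matched for 8993 of the tested genes.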

Additional observations from a re-analysis of the deposited data

Results flagged for a closer look

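The departure is also the difference between what ceritinib did with crenolanib present and what it did without it, and 13 protein-coding genes with large differences are given here because the test of that difference passed (limma, Benjamini-Hochberg adjusted over all genes). The same rule took AC007192.1 at 3.15, TEN1 at 2.33 and AC138811.2 at -2.69, loci that overlap other genes in GENCODE 29 and are not described further. Genes of other biotypes were not ranked, the mitochondrial tRNAs MT-TV at -2.77 and MT-TF at -2.73 among them. Each difference held in 3 of 3 combination libraries. The same was true of all 9732 genes past the threshold. This agreement came with passing the test, so it is a description and not a separate result.

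Genes above additivity, on the log2 scale, follow. DDIT4 changed by 2.99 with ceritinib in the presence of crenolanib and by 0.18 in its absence, a difference of 2.81 (adjusted p = 1.63e-11). ASS1 changed by 2.35 with ceritinib in the presence of crenolanib and by -0.20 in its absence, a difference of 2.55 (adjusted p = 1.91e-11). YIF1A changed by 2.51 with ceritinib in the presence of crenolanib and by 0.13 in its absence, a difference of 2.38 (adjusted p = 7.49e-11). RCN3 changed by 1.93 with ceritinib in the presence of crenolanib and by -0.35 in its absence, a difference of 2.28 (adjusted p = 5.39e-10). ANGPTL4 changed by 2.26 with ceritinib in the presence of crenolanib and by 0.03 in its absence, a difference of 2.22 (adjusted p = 1.33e-08). ACSS2 changed by 1.71 with ceritinib in the presence of crenolanib and by -0.49 in its absence, a difference of 2.20 (adjusted p = 5e-11).

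Genes below additivity, on the same scale, follow. CSE1L changed by -2.41 with ceritinib in the presence of crenolanib and by 0.13 in its absence, a difference of -2.54 (adjusted p = 2.9e-11). KIF20B changed by -2.36 with ceritinib in the presence of crenolanib and by 0.15 in its absence, a difference of -2.50 (adjusted p = 3.45e-11). CENPE changed by -2.39 with ceritinib in the presence of crenolanib and by 0.01 in its absence, a difference of -2.41 (adjusted p = 5.7e-11). CENPF changed by -2.37 with ceritinib in the presence of crenolanib and by 0.03 in its absence, a difference of -2.40 (adjusted p = 1.16e-11). SMC3 changed by -2.35 with ceritinib in the presence of crenolanib and by -0.06 in its absence, a difference of -2.28 (adjusted p = 1.03e-11). ASPM changed by -2.18 with ceritinib in the presence of crenolanib and by 0.07 in its absence, a difference of -2.26 (adjusted p = 3.81e-11). ESF1 changed by -2.33 with ceritinib in the presence of crenolanib and by -0.07 in its absence, a difference of -2.26 (adjusted p = 2.32e-10). The kinetochore and spindle genes in this group have long transcripts low in GC, and their matched differences were -1.51 for KIF20B, -1.42 for CENPE, -1.41 for CENPF and -1.25 for ASPM.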

How the results depend on the processing

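Counts of genes above and below additivity were within 1.5 times of 4035 and 5697 under every alternative, except 3075 below with a filter of 5 FPKM, where 6807 genes were tested. The replicate block gave 4014 above and 5695 below, with 0 genes called the opposite way, and with the GC and length correction as well 4113 and 4100. Leaving out each library in turn gave 3923 to 4020 above and 5595 to 5681 below.

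Counts of departures of at least 2-fold moved most. Against 618 above and 1659 below as deposited, those below were 2833 on the TPM scale, 958 after quantile normalization, 2890 with a pseudocount of 0.1 and 338 with 5, 320 with the GC and length correction, 337 with level added to it and 322 with the replicate block and correction together. Those above were 1137 with median-of-ratios factors, 243 with equal nuclear sums, 1008 and 264 with pseudocounts of 0.1 and 5, 375 corrected, 370 with level added and 375 with block and correction. Adding level to the correction gave 4138 genes above and 4068 below, and leaving out each library, an alternative chosen after seeing the data, 3996 to 4066 above and 3960 to 4072 below.

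Of 96 genes, 84 kept their direction and side of the threshold under every alternative that gave a value. List medians took the other sign in 60 of 1133 recomputations. Among genes past the threshold as deposited or under the alternative, signs turned for IGFBP5 (-0.25 on the TPM scale, -0.36 with a pseudocount of 0.1), HSP90AB1 (0.0686 with median-of-ratios factors), INSR (0.27 after quantile normalization, 0.43 corrected, 0.40 with level in the correction, 0.43 with block and correction), HMGCS1 (0.28 corrected, 0.20 with level in the correction, 0.28 with block and correction), CXCL8 (0.0971 corrected, 0.000254 with level in the correction, 0.0971 with block and correction), PDGFRA (0.40 corrected, 0.44 with level in the correction, 0.40 with block and correction) and IGF1R (0.00652 with level in the correction). DDIT3 passed under none, and its sign varied. The cause was not tested. The combination libraries had the lowest estimated depth, which is a rough estimate, and its part in genes near 1 FPKM was not tested.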

Other observations

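Protein degradation and stress lists not described so far leaned above additivity or were divided. Beside their counts, 33.8% of all genes tested were above and 47.7% below, with a median departure of -0.15. Of the 30 proteasome subunit genes 16 were above and 12 below, and the median departure of 0.44 (-0.01 at the lowest of the other scalings) became 0.25 against matched genes. Of 34 lysosome, V-ATPase and autophagy genes 19 were above and 8 below, with a median of 0.27 and a matched median of 0.28. Of 20 NRF2 and glutathione genes 10 were above and 6 below, with a median of 0.22 that was -0.01 at the lowest of the other scalings. Of 14 BCL2 family genes 9 were above and 1 below, but the median of 0.32 was 0.09 against matched genes. Of 25 ER chaperone and ER stress genes 10 were above and 10 below, and the median ran from -0.30 to 0.16 over the other scalings.

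Transcript classes outside protein-coding genes were mostly below additivity against matched genes. The median matched difference was -0.21 for 219 antisense RNAs, -0.24 for 163 lincRNAs and -0.47 for 120 transcribed unprocessed pseudogenes, against 0.02 for 10567 protein-coding genes and 0.01 for 310 processed pseudogenes. Whether reads were counted by strand is not given in the sources here, so an antisense RNA and its partner cannot be told apart.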
